A study of Mus musculus with 17 samples.

Results

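Markers used to find mammary stem and progenitor cells were measured in 17 mammary tumors of transgenic mice. The set holds 10 genes of the 28786 on the array, found by symbol or by RefSeq accession and read by 18 of its 41174 probes: the cell surface genes Procr, Ly6a, Cd44, Cd24a, Itgb1, Prom1 and Itga2, the transcription factors Klf4 and Sox9, and the enzyme Aldh1a1. All mice were of the FVB strain and carried a human CUX1 isoform, p75-CUX1 (9 tumors) or p110-CUX1 (8 tumors), under the MMTV promoter, which is active mainly in mammary epithelium. No tumor or gland without a transgene was part of the comparisons, and the ages of the mice were not given in the sources used here. Epithelial tumor cells were cut out by laser microdissection. Their RNA was amplified in 2 rounds and hybridized in 1 color against a universal mouse reference RNA, amplified the same way, in the other color. Each value below is therefore a log2 ratio of tumor over reference, where 0 means the same signal in both.

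The labels give 4 adenosquamous carcinomas, 9 solid carcinomas, 2 adenomyoepitheliomas, 1 adenocarcinoma and 1 adenoma. The study also grouped the tumors by the expression of Wnt genes, none of which is among the 10 markers, into clusters of 5 tumors with high, 5 with medium and 7 with low Wnt expression. The high-Wnt cluster held p75-47, p75-80, p75-94, p110-225 and p110-374. The low-Wnt cluster held p75-101, p75-150, p75-534, p110-143, p110-314, p110-360 and p110-416. All 4 adenosquamous carcinomas carried p75-CUX1, and 3 of them were high-Wnt tumors. The p75 and p110 tumors were scanned in different years, so transgene and scan year cannot be told apart.

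The mammary epithelium has a basal layer of contractile myoepithelial cells around an inner layer of luminal cells, and stem and progenitor cells are found among both. They are enriched by sorting for combinations of surface proteins, classically a moderate level of CD24 with a high level of the integrin β1 or α6 chain, and none of these proteins is made by stem cells alone. Wnt signaling maintains the basal stem cells, and Procr, which encodes the protein C receptor, was described as a Wnt-responsive marker of multipotent cells in this gland.

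Between 18.3% and 61.9% of probes were well above background in the tumor color. The epithelial marker list, which checks the labeled cell type, averaged between 0.92 and 2.87 in 16 tumors, and -1.88 in p110-121. In that tumor the luminal list averaged -1.69 against 0.82 to 3.71 in the other 16, and the immune list 3.42 against -0.85 to 0.95. Markers of other cells were also detected after microdissection. In each tumor 5 to 8 of 8 fibroblast genes, 3 to 8 of 8 immune genes, 1 to 7 of 8 endothelial genes and 1 to 5 of 6 adipocyte genes were well above background. In such bulk RNA, fewer cells of a type and less RNA per cell cannot be told apart. Each tumor came from a different mouse, and the p-values below measure the spread between tumors.

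The array reads Cd44, Sox9 and Itgb1 at 3 places each, and these probes are shown because they did not all give the same answer. The first 30 bases of each 60-base probe follow, with positions in mouse build mm7 as the files give them.
A_52_P523459, Cd44, chr2:102662297-102662356: gccaattgcttaggtatgtacaatgagttt
A_52_P229536, Cd44, chr2:102663537-102663596: cactgggatcttatcatcagataagcaggt
A_51_P407053, Cd44, chr2:102685050-102685109: tcatagtacaacccttcagcctactgcagc
A_52_P214630, Sox9, chr11:112896540-112896599: ataaaaccttaaagcgttcttataatatgg
A_52_P577484, Sox9, chr11:112894739-112894798: ttccaggagagagactttaagactttgtct
A_51_P451606, Sox9, chr11:112892041-112892893: actctgggcaagctctggaggctgctgaac
A_52_P351816, Itgb1, chr8:127331051-127331110: tggacgcttactgcaggaaagagaacagtt
A_51_P286527, Itgb1, chr8:127341194-127341253: aaataaaattgacacagttgatgttcaagt
A_52_P69236, Itgb1, chr8:127335633-127340651: aactatggacgtaaagctggtctctgagtt

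The probe listed first for each gene is its brightest and stands for the gene unless another is named. Procr was read at chr2:155496067-155496126, Klf4 at chr4:55541780-55541839, Cd24a at chr10:43397200-43397259, Aldh1a1 at chr19:20343581-20343640 and Ly6a at chr15:75075673-75075732. No gene models of this build were used here, so the exon or untranslated region that a probe lies in is not given.

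Of the 10 markers, 8 were detected and 2 were not. Prom1, which encodes the membrane glycoprotein CD133, and Itga2, which encodes the integrin α2 chain, were well above background in the tumor color in 0 of 17 tumors on all arrays of a tumor. Their brightest probes were at or near background in the reference color too, in which Prom1 was well above it on 1 of 38 arrays and Itga2 on 0, so their ratios near 0 carry no information on level and no differences are given for them. Klf4 and Ly6a were measured in all 17 tumors, Cd44 and Cd24a in 16, Sox9 and Aldh1a1 in 15, Procr in 14 and Itgb1 in 7. A tumor counts as measured where the probe was well above background in the tumor color on every one of its arrays.

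The detected markers differed from one another in how much they varied between tumors. The SD of Sox9, a transcription factor of ductal and luminal progenitor cells, was 2.14 on the log2 scale. The SD of Aldh1a1, a retinaldehyde dehydrogenase whose activity is used to sort progenitor cells, was 1.99. The mean gap between dye-swapped arrays of the same tumor, which holds technical error alone, was 0.29 for Sox9 and 0.68 for Aldh1a1. Single tumors set much of the range from the lowest to the highest value. Sox9 spanned 219-fold, 20.8-fold without p110-416 and 105-fold without p75-216. Aldh1a1 spanned 104-fold, and 59.5-fold without p110-225. Cd44 spanned 25.7-fold, and 11-fold without p110-314. Procr spanned 19.1-fold, and 5.48-fold without p75-80. The ranges of Klf4, at 46.8-fold, and of Ly6a, at 10.4-fold, changed by less than 1.5 times with either extreme tumor left out. Cd24a spanned 9.23-fold over the 16 tumors where it was measured, from 1.41 to 4.62. Itgb1 ran from -1.40 to 0.01 over its 7 measured tumors, with a mean gap of 0.53 between swapped arrays over all tumors.

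The markers also lay on different sides of the reference. Cd24a was above the reference in 16 of 17 tumors, Sox9 in 13 and Ly6a in 10. Klf4 was above it in 6 tumors, Aldh1a1 in 5, Cd44 in 2, and Procr and Itgb1 in 1 each. The reference is a pool of RNA from other sources and is not normal mammary gland, so these counts rank tumors against the pool and not against normal epithelium.

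**Figure D1:**
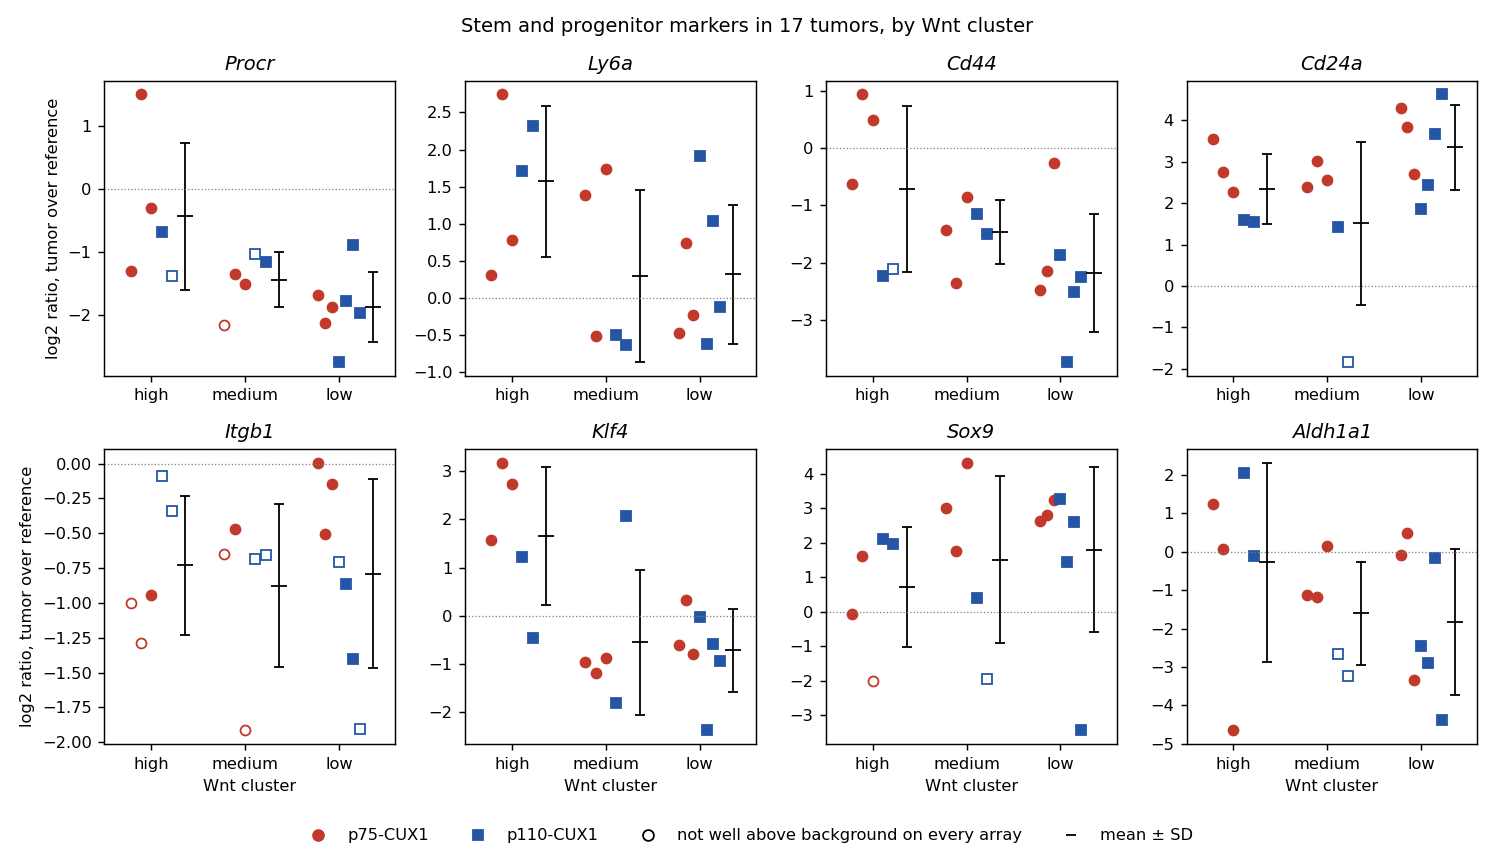
Log2 ratio of tumor over reference (vertical axis, a scale of its own for each gene) for the 8 detected markers in the high-, medium- and low-Wnt clusters (horizontal axis). Each point is 1 tumor, circles p75-CUX1 and squares p110-CUX1, open where the probe was not well above background on every array, and bars give the mean ± SD. Klf4 in 4 of 5 high-Wnt tumors lay above all low-Wnt tumors, while the high-Wnt cluster held both the lowest and the highest tumor for Aldh1a1.

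The comparison of high-Wnt with low-Wnt tumors asks whether the markers followed the Wnt genes. Klf4, Aldh1a1, Cd44, Procr and Ly6a had higher mean ratios in high-Wnt tumors, by 1.25 to 2.36 on the log2 scale, and none of the 10 markers passed the test over all genes (limma, Benjamini-Hochberg adjusted p under 0.05). The count of 0 of 10 stands against a background of 0.233% of all genes. Without adjustment, Klf4, Procr, Cd44 and Ly6a, 4 of 10, had a p under 0.05, against 12% of all genes. The ranges of the clusters overlapped for every marker gene (0 of 10, against 1.7% of genes whose clusters did not overlap). Of the 8 detected markers 6 had the higher mean in high-Wnt tumors, with a median difference of 1.34 (0.65 with the 2 undetected markers) against 0.02 over all genes. Over the alternatives and the tumors left out, this count of 6 ran from 4 to 7.

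Klf4 encodes a Krüppel-like transcription factor of differentiating epithelia that is also one of the factors used to reprogram cells to pluripotency. In high-Wnt tumors its log2 ratio was 1.57 in p75-47, 3.17 in p75-80, 2.74 in p75-94, 1.23 in p110-225 and -0.46 in p110-374. In low-Wnt tumors the lowest value was -2.37, the median -0.60 and the highest 0.32. All but 1 high-Wnt tumor, p110-374, exceeded every low-Wnt tumor. The mean ratio of Klf4 was 1.65 ± 1.43 (SD, n = 5) with high Wnt expression and -0.71 ± 0.85 (SD, n = 7) with low. They differed by 2.36 ± 0.70 (SE, 95% confidence interval 0.88 to 3.85, limma p = 0.00398, Benjamini-Hochberg adjusted p = 0.169, exact two-sided permutation p = 0.00379). Of the medium-Wnt tumors, p110-121 had 2.06 and the other 4 had -1.80 to -0.87.

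Procr followed a similar order with 1 tumor far ahead. Its log2 ratio in high-Wnt tumors was -1.29 in p75-47, 1.51 in p75-80, -0.29 in p75-94, -0.68 in p110-225 and -1.37 in p110-374, where it was not well above background. In low-Wnt tumors it ran from -2.74 through a median of -1.86 to -0.88. The 3 high-Wnt tumors p75-80, p75-94 and p110-225 exceeded every low-Wnt tumor, and the other 2 lay among them. The difference was 1.44 ± 0.43 (SE, 95% confidence interval 0.53 to 2.35, limma p = 0.00425, Benjamini-Hochberg adjusted p = 0.172, exact permutation p = 0.00631). It was 0.95 without p75-80.

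Ly6a encodes Sca-1, a GPI-anchored surface protein of progenitor cells in several tissues. Its log2 ratio in high-Wnt tumors was 0.31 in p75-47, 2.74 in p75-80, 0.78 in p75-94, 1.71 in p110-225 and 2.31 in p110-374, and in low-Wnt tumors it ran from -0.62 through a median of -0.12 to 1.91. High-Wnt tumors were above the reference in all 5 cases, and low-Wnt tumors in 3 of 7. The difference was 1.25 ± 0.58 (SE, 95% confidence interval 0.02 to 2.48, limma p = 0.0472, Benjamini-Hochberg adjusted p = 0.407, exact permutation p = 0.0581).

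Cd44 encodes the receptor for hyaluronan and is a marker of breast cancer cells with high tumor-forming capacity. Its brightest probe read -0.63 in p75-47, 0.94 in p75-80, 0.49 in p75-94, -2.23 in p110-225 and -2.11 in p110-374, where it was not well above background. Low-Wnt tumors ran from -3.75 through a median of -2.25 to -0.25. The high-Wnt tumors separated by transgene, with the 3 p75 tumors above the 2 p110 tumors. The difference was 1.47 ± 0.60 (SE, 95% confidence interval 0.19 to 2.76, limma p = 0.0275, Benjamini-Hochberg adjusted p = 0.334, exact permutation p = 0.0821).

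A second Cd44 probe, A_52_P229536, lies 1240 bases from the first and gave a different order. It read -1.02 in p75-47, -0.12 in p75-80, -0.14 in p75-94, -0.30 in p110-225 and -0.46 in p110-374. In low-Wnt tumors it ran from -3.02 through a median of -1.99 to -1.20. The clusters did not overlap for this probe, the only one of the 18 for which that was so, against 1.51% of all probes. Fitted over all probes, a comparison added after seeing the data, the difference was 1.65 ± 0.34 (SE, limma, Benjamini-Hochberg adjusted p = 0.0681). None of the 18 probes passed that adjustment, against 0.0971% of all probes.

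Over the 17 tumors the first and second Cd44 probes correlated with r = 0.66 across tumors. They parted most in high-Wnt p110 tumors, with -2.23 against -0.30 in p110-225 and -2.11 against -0.46 in p110-374, although in p110-374 neither probe passed background on every array. The third probe, A_51_P407053, which lies 22753 bases from the first, was measured in 2 tumors only and stayed between -0.13 and 0.49. Whether the probes read different transcripts of Cd44 was not tested.

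**Figure D2:**
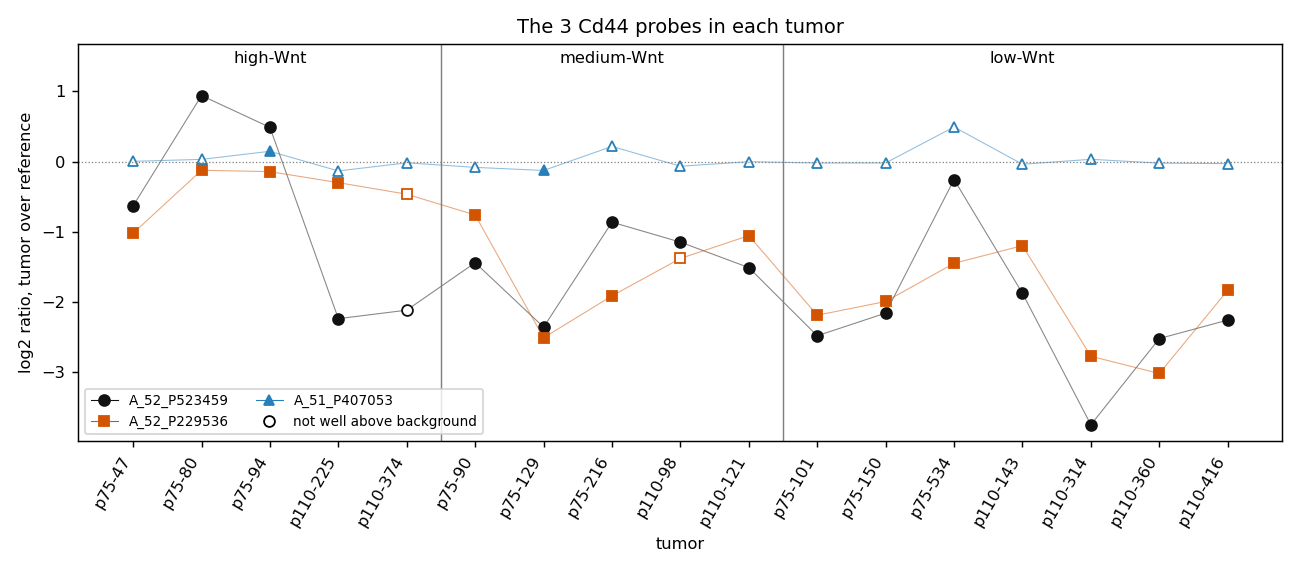
Log2 ratio of tumor over reference (vertical axis) of the 3 Cd44 probes in each of the 17 tumors (horizontal axis, ordered by Wnt cluster), open where the probe was not well above background on every array. For A_52_P229536 all 5 high-Wnt tumors lie at -1.02 or above and all 7 low-Wnt tumors at -1.20 or below, while A_51_P407053 lies between -0.13 and 0.49 in all tumors.

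The 4 other detected markers had no difference between the clusters that reached an unadjusted p of 0.05. Cd24a, which encodes a mucin-like surface protein of luminal and, at lower levels, basal cells, read 3.54 in p75-47, 2.76 in p75-80, 2.27 in p75-94, 1.59 in p110-225 and 1.53 in p110-374. Low-Wnt tumors ran from 1.85 through a median of 3.68 to 4.62. The 3 p75 tumors of the high-Wnt cluster lay within the low-Wnt range and the 2 p110 tumors below it. The difference was -1.01 ± 0.75 (SE, 95% confidence interval -2.59 to 0.58, limma, Benjamini-Hochberg adjusted p = 0.633).

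Sox9 read -0.05 in p75-47, 1.61 in p75-80, -2.002 in p75-94, where it was not well above background, 2.10 in p110-225 and 1.95 in p110-374. Low-Wnt tumors ran from -3.45 through a median of 2.64 to 3.26. All low-Wnt tumors but p110-416, which held the lowest value of all 17, lay at 1.44 or above. The difference was -1.07 ± 1.26 (SE, 95% confidence interval -3.75 to 1.60, limma, Benjamini-Hochberg adjusted p = 0.770). It was -1.95 without p110-416 and -0.39 without p75-94. The second Sox9 probe, 1801 bases away and measured in 11 tumors, correlated with the first at r = 0.91 across tumors and differed by -1.19 ± 0.62 (SE, limma over all probes, Benjamini-Hochberg adjusted p = 0.488). The third was measured in 1 tumor.

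Aldh1a1 read 1.24 in p75-47, 0.08 in p75-80, -4.65 in p75-94, 2.04 in p110-225 and -0.11 in p110-374, so the high-Wnt cluster held both its lowest and its highest tumor. Low-Wnt tumors ran from -4.39 through a median of -2.46 to 0.49. The difference was 1.55 ± 1.12 (SE, 95% confidence interval -0.83 to 3.94, limma, Benjamini-Hochberg adjusted p = 0.623). It was 0.97 without p110-225 and 2.65 without p75-94.

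Itgb1 encodes the integrin β1 chain, which anchors basal cells to the basement membrane. It read -0.999 in p75-47, -1.29 in p75-80, -0.94 in p75-94, -0.09 in p110-225 and -0.34 in p110-374, with only p75-94 measured on every array. Low-Wnt tumors ran from -1.90 through a median of -0.71 to 0.01, with 5 of 7 measured. The high-Wnt values all lay inside the low-Wnt range. The difference was 0.06 ± 0.34 (SE, 95% confidence interval -0.67 to 0.79, limma, Benjamini-Hochberg adjusted p = 0.962). A second Itgb1 probe, A_51_P286527, was measured in 12 tumors and differed by 0.20 ± 0.14 (SE, limma over all probes, Benjamini-Hochberg adjusted p = 0.622). The first and second Itgb1 probes correlated at r = 0.18 across tumors, and the third was measured in 1 tumor.

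The comparison was repeated within each transgene, which also keeps to 1 scan year. For Procr the difference was 1.86 among p75 tumors and 0.82 among p110 tumors. For Klf4 it was 2.85 and 1.36, for Ly6a 1.26 and 1.46, and for Cd44 1.90 and 0.42. These 4 genes thus kept their direction in both, although the p110 values rest on 2 high-Wnt tumors (limma, unadjusted p = 0.0843 to 0.429). In 1 of these, p110-374, Procr and Cd44 were not well above background. On the second Cd44 probe the high-Wnt p110 tumors read -0.30 and -0.46, and the low-Wnt ones -3.02 to -1.20. For Cd24a the differences among p75 and p110 tumors were -0.76 and -1.58. For Sox9 they were -3.05 and 1.06, and the p110 sign rests on p110-416 at -3.45. The other low-Wnt p110 tumors read 1.44 to 3.26, and the high-Wnt ones 2.10 and 1.95. On the second Sox9 probe the high-Wnt p110 tumors read 0.31 and 0.60. The low-Wnt ones read 0.90 to 1.98 on it, but for p110-416 at -1.35. That probe was not measured in p110-416 or in either high-Wnt p110 tumor. The differences of Aldh1a1 were -0.13 among p75 and 3.44 among p110 tumors, and those of Itgb1 -0.86 and 1.01. Itgb1 was not well above background on every array of p75-47, p75-80 or either high-Wnt p110 tumor. On the second Itgb1 probe p75 tumors read -0.39 to -0.10 with high and -0.58 to -0.28 with low Wnt expression. The p110 tumors read -0.25 and -0.03 with high and -0.90 to 0.07 with low. That probe was not measured in p75-47, p75-101 or either high-Wnt p110 tumor. At an unadjusted p under 0.05 there were 5 of 10 markers among p75 tumors (Cd44, Klf4 and Procr higher, Itgb1 and Sox9 lower in high-Wnt tumors), against 7.82% of all genes, and 2 of 10 among p110 tumors (Aldh1a1 and Itgb1, both higher), against 17.4%. None passed within either transgene (limma, Benjamini-Hochberg adjusted p under 0.05). Among p110 tumors the tumor color was well above background for 22.2% and 18.3% of probes in the 2 high-Wnt tumors and 30.1% to 51.8% in the 4 low-Wnt tumors, without overlap, and the part of this share in the p110 differences was not tested. Among p75 tumors the share was 31.4% to 47.9% in high-Wnt and 34.8% to 35.7% in low-Wnt tumors. In a test of the difference between transgenes (limma interaction term, Benjamini-Hochberg adjusted over all genes), 0 of 10 markers passed, against 0.0625% of genes. The smallest adjusted p was 0.133 for the brightest Itgb1 probe (unadjusted p = 0.00386), followed by 0.470 for Sox9 (unadjusted p = 0.0810).

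Markers of other cell types and states moved with the same comparison, some higher and some lower in high-Wnt tumors. The squamous list averaged -0.29 to 1.66 in high-Wnt tumors and -0.62 to -0.35 in low-Wnt tumors, without overlap, and 2 to 5 of its 7 genes were measured in each high-Wnt tumor and 1 to 3 in each low-Wnt tumor. Basal and myoepithelial markers averaged 2.33 to 4.18 in high-Wnt and -0.32 to 3.12 in low-Wnt tumors. Of the squamous genes 5 of 7 (including Ivl, measured in none of these tumors) and of the basal genes 3 of 9 had an unadjusted p under 0.05, against 12% of all genes, and none passed the limma test over all genes. Endothelial markers averaged 0.61 to 1.65 in high-Wnt and 0.76 to 2.55 in low-Wnt tumors, with 2 of 8 higher in high-Wnt tumors, a median difference of -0.55 and 2 of 8 at an unadjusted p under 0.05. Adipocyte markers had a median of 0.85 (0.59 to 4.64) in high-Wnt and 3.27 (0.55 to 4.73) in low-Wnt tumors, with 1 of 6 higher in high-Wnt tumors, a median difference of -0.75 and 0 of 6 at an unadjusted p under 0.05. Of fibroblast markers 6 of 8 were higher (median difference 0.55) and of immune markers 7 of 8 (median difference 0.21), none at an unadjusted p under 0.05. No gene of these lists passed. The part of any of these lists in the differences of Klf4, Procr, Cd44 and Ly6a was not tested.

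**Figure D3:**
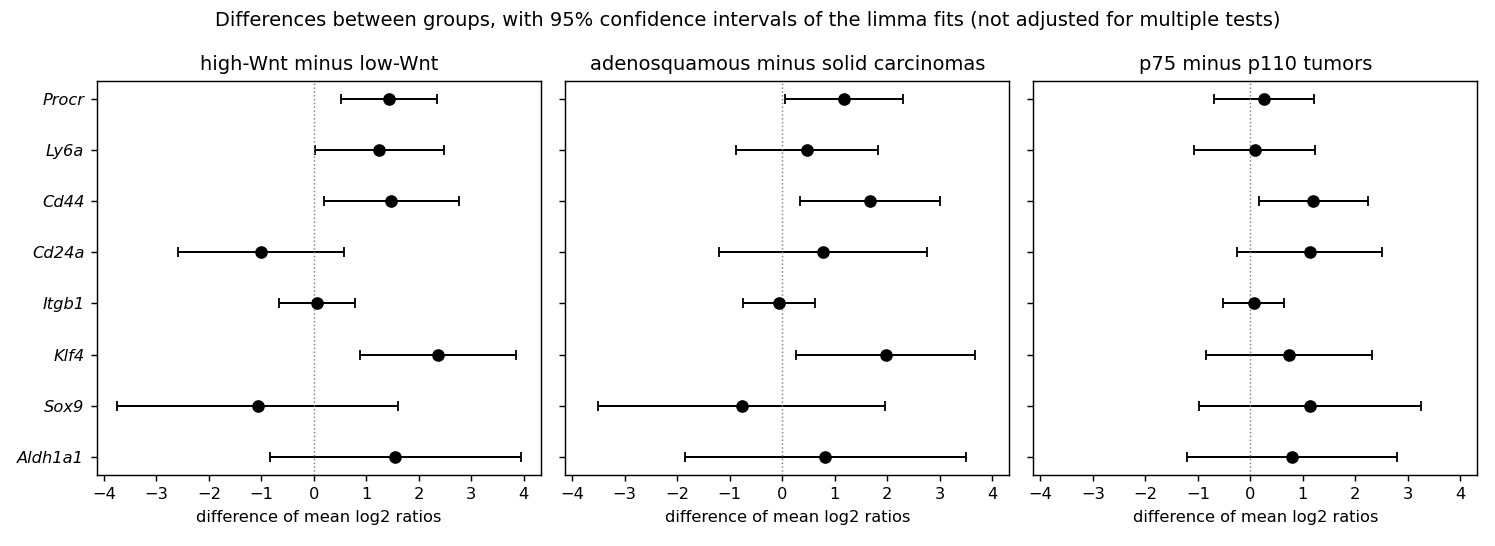
Differences of mean log2 ratios (horizontal axis) of the 8 detected markers (vertical axis) in the 3 comparisons, high-Wnt minus low-Wnt, adenosquamous minus solid carcinomas and p75 minus p110 tumors. Points are differences and lines 95% confidence intervals of the limma fits, not adjusted for multiple tests. The interval of Klf4 between Wnt clusters, 0.88 to 3.85, lies to the right of 0, and that of Sox9, -3.75 to 1.60, spans it.

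The comparison of histological types set the 4 adenosquamous against the 9 solid carcinomas. Cd44, Klf4 and Procr had higher mean ratios in adenosquamous carcinomas, by 1.18 to 1.97, and none of the 10 markers passed (limma, Benjamini-Hochberg adjusted p under 0.05), as none of all genes did (0%). At an unadjusted p under 0.05 there were 4 of 10, Cd44, Klf4, Procr and the undetected Itga2, against 5.5% of all genes (1582). The ranges of the types overlapped for every marker (0 of 10, against 0.406% of genes without overlap). The median difference over the 8 detected markers was 0.80 (0.63 over all 10) against -0.01 over all genes.

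Cd44 read -0.63 in p75-47, 0.94 in p75-80, 0.49 in p75-94 and -2.48 in p75-101, against a lowest value of -3.75, a median of -2.23 and a highest of -0.25 in solid carcinomas. Its difference was 1.68 ± 0.62 (SE, 95% confidence interval 0.34 to 3.02, limma p = 0.0176, Benjamini-Hochberg adjusted p = 0.875, exact permutation p = 0.0266). On the second Cd44 probe the difference was 0.92 ± 0.50 (SE, limma over all probes, Benjamini-Hochberg adjusted p = 0.885). The adenosquamous carcinoma of the low-Wnt cluster, p75-101, was the low value. For Klf4, p75-101 had -0.60, again the lowest of the 4, and solid carcinomas ran from -2.37 through a median of -0.57 to 2.06. Its difference was 1.97 ± 0.79 (SE, limma p = 0.0266, Benjamini-Hochberg adjusted p = 0.875, exact permutation p = 0.0476). Procr was -1.67 in p75-101, and its difference was 1.18 ± 0.52 (SE, limma p = 0.0407, Benjamini-Hochberg adjusted p = 0.875, exact permutation p = 0.0490), or 0.53 without p75-80. For these 3 genes p75-101 was the lowest of the 4 adenosquamous carcinomas.

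All 4 adenosquamous carcinomas were p75 tumors, while 6 of the 9 solid carcinomas were p110 tumors and from another scan year. Among p75 tumors alone, 4 against 3, the histological difference was 1.17 for Cd44, 2.28 for Klf4 and 1.34 for Procr, and none of the 10 markers had an unadjusted p under 0.05 there, against 3.85% of all genes. The adjusted p of these 3 was 0.990 (limma, Benjamini-Hochberg). The other detected markers differed by 0.83 ± 1.24 for Aldh1a1, 0.78 ± 0.92 for Cd24a, 0.47 ± 0.62 for Ly6a, -0.05 ± 0.32 for Itgb1 and -0.77 ± 1.27 for Sox9 (SE, 4 against 9 tumors, limma, Benjamini-Hochberg adjusted p = 0.900 to 0.983). Each of these differences was within 1 SE of 0. Leaving out 1 tumor turned the sign of Ly6a (-0.16 without p75-80), Itgb1 (0.11 without p75-80) and Sox9 (0.08 without p75-94). Cd24a differed by 0.25 without p110-121, which a list of the solid carcinomas in the study leaves out, and Aldh1a1 by 0.13 without p75-47 and 2.09 without p75-94. The squamous list had 5 of 7 genes, the undetected Ivl among them, at an unadjusted p under 0.05 in this comparison too, against 5.5% of all genes, and its part in the differences of Cd44, Klf4 and Procr was not tested. The adenomyoepitheliomas p75-90 and p110-374, the adenocarcinoma p75-216 and the adenoma p110-98 were too few for a test. Sox9 had the highest ratio of all 17 tumors in the adenocarcinoma, at 4.33.

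Between p75 and p110 tumors, Cd44 was the only marker with an unadjusted p under 0.05 (1 of 10, against 13.8% of all genes), and none of the 10 passed over all genes (limma, Benjamini-Hochberg adjusted p under 0.05), against 0.504% of genes. Its brightest probe ran from -2.48 through a median of -0.86 to 0.94 in p75 tumors and from -3.75 through -2.17 to -1.15 in p110 tumors. The ranges overlapped, with the 5 highest tumors all p75. It averaged -0.97 ± 1.24 (SD, n = 9) in p75 and -2.17 ± 0.77 (SD, n = 8) in p110 tumors. They differed by 1.20 ± 0.49 (SE, 95% confidence interval 0.17 to 2.24, limma p = 0.0256, Benjamini-Hochberg adjusted p = 0.270, exact permutation p = 0.0320). Over the alternatives other than leaving out a tumor the difference was 0.47 to 2.44. It was 0.47 in the tumor color alone (limma, Benjamini-Hochberg adjusted p = 0.635), 0.49 with the mean of all Cd44 probes (adjusted p = 0.502), 0.77 among solid carcinomas (adjusted p = 0.904) and 1.82 with scaled arrays (adjusted p = 0.543). When median centering replaced loess it was 2.44 (adjusted p = 0.0285), the one alternative in which it passed. The second Cd44 probe, A_52_P229536, differed by 0.16 (limma over all probes, Benjamini-Hochberg adjusted p = 0.913), so the transgene difference was carried by 1 of the 2 measured Cd44 probes.

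All 8 detected markers had the higher mean in p75 tumors, with a median difference of 0.76 (0.50 with the 2 undetected markers) against 0.0005 over all genes. Over the alternatives, tumors left out included, the count was 5 to 8. For Cd24a the means were 3.04 ± 0.70 (SD, n = 9) and 1.91 ± 1.90 (SD, n = 8), and the difference was 1.13 ± 0.65 (SE, limma, Benjamini-Hochberg adjusted p = 0.477). The p110 value includes -1.84 in p110-121, where Cd24a was not well above background and the epithelial list was lowest. The difference was 0.60 without p110-121. Sox9 differed by 1.13 ± 0.996, Aldh1a1 by 0.79 ± 0.94, Klf4 by 0.74 ± 0.74, Procr by 0.26 ± 0.45, Ly6a by 0.08 ± 0.55 and Itgb1 by 0.06 ± 0.28 (SE, 9 against 8 tumors, limma, Benjamini-Hochberg adjusted p = 0.664 to 0.967). Each of these 6 differences was smaller than 2 SE. With 1 tumor left out at a time, the difference ran from 0.53 (without p110-416) to 1.63 (without p75-94) for Sox9, from 0.41 (without p110-416) to 1.33 (without p110-225) for Aldh1a1 and from 0.39 (without p75-80) to 1.08 (without p110-121) for Klf4. That of Procr was -0.08 and that of Ly6a -0.17 without p75-80, and that of Itgb1 was -0.09 without p110-416. Among the other cell markers, 0 of 8 immune genes were higher in p75 tumors.

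The markers were then set against each other over the 17 tumors, 45 pairs in all. The 3 highest correlations were those among Klf4, Procr and Cd44, and no pair passed a Benjamini-Hochberg adjustment over the 45 by Pearson's r or Spearman's rho (4 and 1 had an unadjusted permutation p under 0.05). Klf4 and Cd44 correlated with r = 0.65 (permutation p = 0.00419, adjusted p = 0.0997) and rho = 0.46 (p = 0.0687, adjusted p = 0.723). Without p75-80 and p75-94, the tumors farthest from the median of Klf4, r was 0.31, so this relation rests on those tumors. Among p75 tumors alone it was 0.75 (exact permutation p = 0.0246), and among p110 tumors 0.43 (exact permutation p = 0.287).

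Procr and Klf4 correlated with r = 0.64 (permutation p = 0.00443, adjusted p = 0.0997) and rho = 0.46 (p = 0.0625, adjusted p = 0.723). Without p75-80 and p110-143 r was 0.55. Within p75 tumors it was 0.81 (exact permutation p = 0.00598) and within p110 tumors 0.25 (exact permutation p = 0.555). Procr and Cd44 correlated with r = 0.57 (permutation p = 0.0174, adjusted p = 0.238) and rho = 0.26 (p = 0.314, adjusted p = 0.848), with r = 0.32 without the same 2 tumors, 0.73 within p75 tumors and 0.15 within p110 tumors. With median centering of the arrays instead of loess, the 3 relations had r = 0.75 to 0.80 and passed the adjustment (permutation, adjusted p = 0.0036 to 0.0081). With arrays scaled to the same spread, Procr and Cd44 (r = 0.82, adjusted permutation p = 0.0139) and Klf4 and Cd44 (r = 0.74, adjusted permutation p = 0.0476) passed too. After loess without scaling, r was larger among p75 than p110 tumors for all 3 relations, a difference between transgenes that was not tested. The highest tumor for all 3 genes was p75-80.

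Sox9 and Aldh1a1 were the only other pair above 0.5, with r = 0.55 (permutation p = 0.0212, adjusted p = 0.238) and rho = 0.38 (p = 0.129, adjusted p = 0.723). Without p110-416 and p75-94, the lowest pair of tumors for both genes, r was 0.22. Within p75 tumors it was 0.38 and within p110 tumors 0.66 (exact permutation p = 0.0779). The lowest Pearson's r of the 45 was -0.33, between Klf4 and Sox9. Procr and Sox9 had the lowest rho, at -0.49 (permutation p = 0.0493, adjusted p = 0.723), with r = -0.21 (permutation p = 0.411, adjusted p = 0.844). Of the 28 pairs of detected markers, 14.3% had an absolute r of at least 0.5, against 22.1% of the 10790335 pairs of the 4646 genes measured in all tumors, a filter that only Klf4 and Ly6a of the markers pass. The share was 8.89% over all 45 pairs, which include those of the 2 undetected markers. With the adjustment over the 28 pairs alone, added after seeing the data, none passed either.

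**Figure D4:**
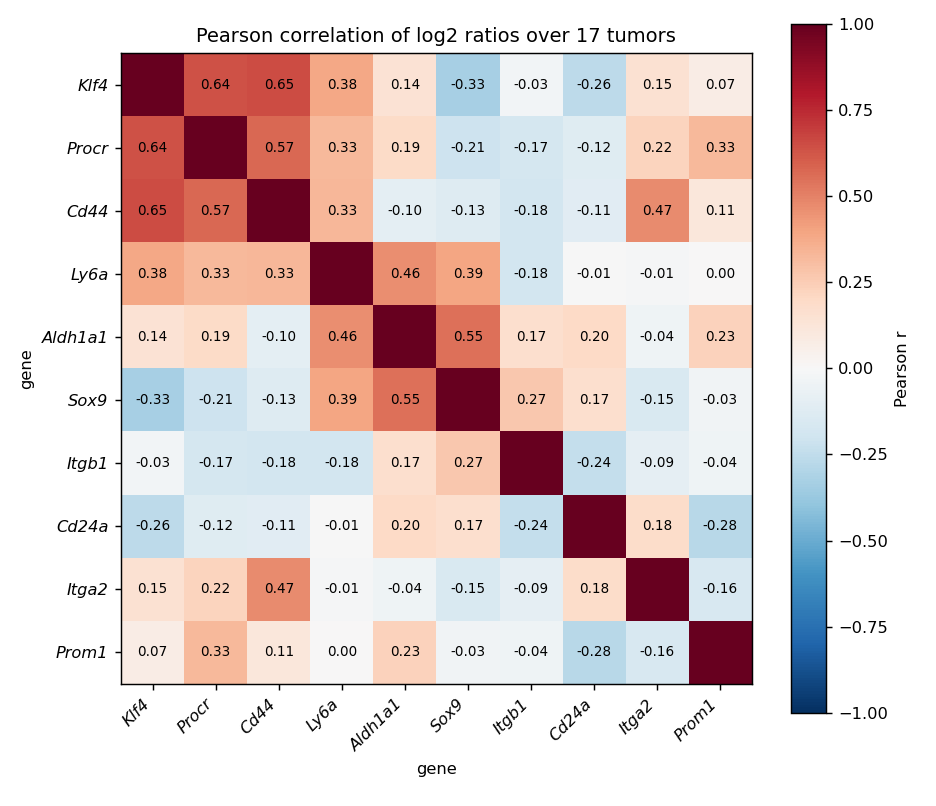
Pearson r between the log2 ratios of the 10 markers over 17 tumors, each marker on both axes, with the value printed in each cell. Klf4, Procr and Cd44 form the block of highest values, 0.57 to 0.65, Sox9 and Aldh1a1 reach 0.55, and Prom1 and Itga2 were not measured above background.

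Each marker was also set against the means of the 8 cell type marker lists and the share of probes above background, 90 relations in all, and none passed a Benjamini-Hochberg adjustment over the 90 (12 had an unadjusted p under 0.05 by Pearson's r). Ly6a correlated with the basal and myoepithelial list with r = 0.68 (permutation p = 0.00184, adjusted p = 0.0828) and rho = 0.75 (p = 0.00091, adjusted p = 0.0819). The r was 0.68 without p110-416 and p110-314, 0.77 within p75 tumors (exact permutation p = 0.0152) and 0.76 within p110 tumors (exact permutation p = 0.0486). This relation did not rest on the extreme tumors and was as large within each scan year. The lowest basal lists were those of p110-416, p110-314 and p110-121, at -0.32, -0.09 and 0.20, and Ly6a was -0.12, -0.62 and -0.64 in them. Sox9 (r = 0.63, rho = 0.43) and Aldh1a1 (r = 0.62, rho = 0.58) also correlated with this list (permutation, adjusted p = 0.130 by r for both), and r was 0.56 and 0.49 without the same tumors.

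Procr correlated with the squamous list with r = 0.77 (permutation p = 0.00165, adjusted p = 0.0828) and rho = 0.57 (adjusted p = 0.291), and r was 0.31 without p75-80 and p75-94, so it rests on them. Cd44 did so with r = 0.66 (adjusted p = 0.114) and 0.27 without the same tumors. Klf4 ran against the luminal list, with r = -0.61 (permutation p = 0.00723, adjusted p = 0.130) and rho = -0.58, and with -0.67 within p75 and -0.72 within p110 tumors. Cd24a against the immune list had r = -0.70 (adjusted p = 0.172) and -0.13 without p110-121. The luminal relation of Klf4 had the same sign within each transgene and was -0.48 without p110-121 and p75-94, and the immune relation of Cd24a rested on 1 tumor.

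**Figure D5:**
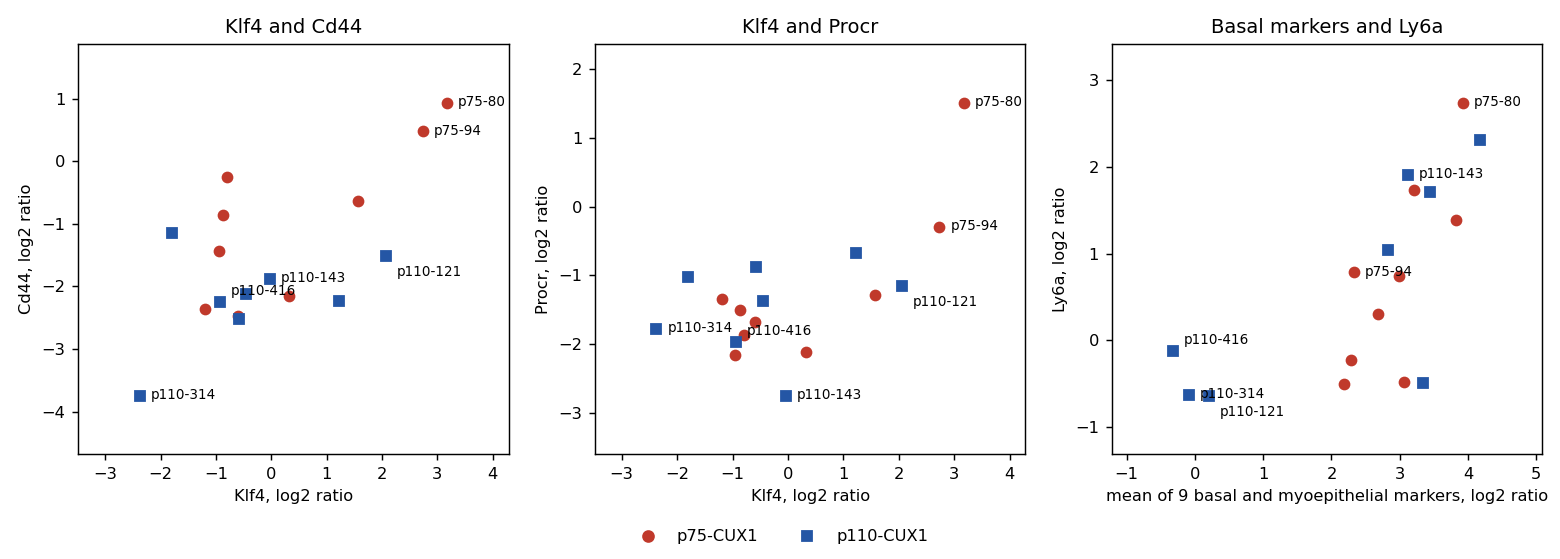
Log2 ratios of Klf4 against Cd44 and against Procr, and of the mean of basal and myoepithelial markers against Ly6a, with 1 point per tumor. In the Klf4 plots p75-80 and p75-94 lie at 3.17 and 2.74, and without them r with Cd44 is 0.31. In the Ly6a plot r is 0.68 with and without the 2 tumors lowest in basal markers.

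By likeness over the 17 tumors (Pearson r, a description, among genes measured in all of them), the gene most like Procr was Avpi1 (0.82), followed by Tspan18 (0.77) and the Wnt ligand gene Wnt6 (0.76). Klf4 was most like the tubulin gene Tubb6 (0.82), 2610307O08Rik (0.80) and S100a10 (0.78), Cd44 most like Slc25a24 (0.87), Rbbp8 (0.84) and Prss12 (0.83), and Ly6a most like Snx19 (0.86), the glutamine synthetase gene Glul (0.83) and Ipo13 (0.83). Sox9 was most like the retinoblastoma gene Rb1 (0.84), Map3k1 (0.83) and Zc2hc1a (0.83). Cd24a was most like Retreg3 (0.92), Pecr (0.91) and Ift20 (0.90), which were 0.81, 0.78 and 0.77 without p110-121. Itgb1 was most like Anxa5 (0.72), Fam149a (0.71) and Pkig (0.71), and Aldh1a1 most like AA733629 (0.71), the complement gene C3 (0.70) and Tacc2 (0.65). Of the 8 detected markers, Aldh1a1 and Itgb1 had the lowest values for their most similar gene.

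Other stem and progenitor genes were taken from 3 wider lists, and none of their genes passed in any of the 3 comparisons (limma, Benjamini-Hochberg adjusted p under 0.05). Between high-Wnt and low-Wnt tumors, 7 of 14 other basal and stem cell markers were higher in high-Wnt tumors (median difference -0.08, 1 at an unadjusted p under 0.05, Bcl11b, which was not well above background in any of these tumors), 3 of 10 luminal progenitor markers (median -0.28, 2 unadjusted) and 6 of 12 pluripotency and other stem cell markers (median -0.02, 1 unadjusted). Over all genes the median was 0.02 and the unadjusted share 12%. Between adenosquamous and solid carcinomas the unadjusted counts were 2, 0 and 2, against 5.5% of all genes, and between p75 and p110 tumors 2, 1 and 3, against 13.8%.

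Of the pair with the smallest p in each wider list, none passed, and Bcl11b was not measured in either group. Kit, the stem cell factor receptor of luminal progenitors, ran from 1.03 through a median of 1.40 to 2.05 in high-Wnt tumors and from 1.94 through 3.34 to 5.16 in low-Wnt tumors. The ranges overlapped only between 1.94 and 2.05. Its difference was -1.90 ± 0.60 (SE, limma, Benjamini-Hochberg adjusted p = 0.197), with Kit measured in 4 of 5 high-Wnt and 7 of 7 low-Wnt tumors. The other luminal progenitor gene was Tnfrsf11a, the receptor RANK, at -1.01 ± 0.41 (limma, Benjamini-Hochberg adjusted p = 0.325), measured in 1 of 5 high-Wnt and 6 of 7 low-Wnt tumors.

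Epcam, an epithelial adhesion molecule that is also in the epithelial list, differed by -0.92 ± 0.35 (SE, limma, Benjamini-Hochberg adjusted p = 0.298) and Abcg2, the drug efflux pump of side population cells, by -1.98 ± 0.96 (adjusted p = 0.433). Epcam was measured in 3 and Abcg2 in 4 of 5 high-Wnt tumors, and both in 7 of 7 low-Wnt tumors. Krt15, a basal keratin, went the other way, by 2.49 ± 1.20 (SE, adjusted p = 0.430), with a median of 3.11 in high-Wnt and -0.30 in low-Wnt tumors and overlapping ranges. It was measured in 4 of 5 high-Wnt and 5 of 7 low-Wnt tumors. Bcl11b, a transcription factor of quiescent basal stem cells, was well above background in 0 of these 12 tumors, and no difference is given.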

How the data were processed

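The deposited scanner files give the intensity and local background of 45018 spots in both colors, measured by the authors with Feature Extraction 9.5.3.1 per the file headers, on 38 arrays, with 2 or 4 dye-swapped arrays per tumor. The deposited table of log2 ratios, which the authors made with limma per the labels, was recomputed from these intensities with a largest difference of 4.98e-08.

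Intensities were corrected by normexp (offset 50), outlier spots (0.545%) left out, and ratios of tumor over reference taken after loess on each array and averaged over spots and arrays. This was done in R 4.3.3 with the packages limma 3.58.1 and statmod 1.5.0. Normexp with this offset and amplification compress ratios of dim probes. The brightest probe stood for a gene. A probe was measured in a tumor where at least 50% of its spots were well above background on each array. Groups were compared with lmFit and eBayes over all 17 tumors and Benjamini-Hochberg over 28786 genes, single genes by exact permutation of the tumors between groups (two-sided), and correlations with permutation tests (100000 resamples for 17 tumors, exact within a transgene), using Python 3.11.15, numpy 2.4.6, scipy 1.17.1 and pandas 2.3.3. Figures were drawn with matplotlib 3.10.9. The scripts were tested on simulated data. The number of tumors limits the precision.

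Histology and transgene come from the labels, and the Wnt cluster from the grouping drawn in the study. Named genes are the 10 markers with every probe, wider-list genes that passed or had the 2 smallest p of their list between Wnt clusters, and the 3 genes most like each marker. The wider lists are other basal and stem cell markers (Itga6, Lgr5, Lgr6, Axin2, Sox10, Snai2, Tspan8, Bcl11b, Dll1, Inpp5d, Cd1d1, Id4, Bmi1, Krt15), luminal progenitor markers (Kit, Itgb3, Elf5, Cd14, Notch1, Notch3, Aldh1a3, Tnfrsf11a, Sox6, Slpi) and pluripotency and other stem cell markers (Nanog, Pou5f1, Sox2, Myc, Tert, Abcg2, Lin28a, Msi1, Nes, Epcam, Alcam, Thy1). The markers and lists were chosen with earlier results of these data known. RefSeq symbols were found for 22951 of 41174 probes. Alternatives were other background corrections, normalizations, probe rules, filters, dyes, moderation, the deposited values, scan day or slide as a random block, other sets of tumors in the fit, and each tumor left out in turn. The fits without p110-121, the pairs of detected markers alone and the fits of each probe were added after seeing the data.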

Additional observations from a re-analysis of the deposited data

Results flagged for a closer look

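Each detected marker was tested for an outlier in each group of 4 or more tumors. In 4 of these 56 tests the lowest or highest tumor stood apart by more than Dixon's 95% critical value. Chance alone gives about 1 in 20 tests, and the tests share tumors, so they are not independent. Klf4 in p110-121 was 2.06, against -0.87 in the nearest of the other medium-Wnt tumors. Sox9 in p110-416 was -3.45, against 1.44 in the nearest of the other low-Wnt tumors. Itgb1 in p75-216 was -1.92, against -0.68 in the nearest medium-Wnt tumor, and Cd24a in p110-121 was -1.84, against 1.59 in the nearest solid carcinoma. The last 2 values were not well above background on every array.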

How the results depend on the processing

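None of the 10 markers passed between Wnt clusters or histological types under any alternative run. The genes called between high-Wnt and low-Wnt tumors, 67, were 0 with no background correction, median centering or scaled arrays, 5 with Feature Extraction's signals, 7 with the tumor in Cy5, 9 in Cy3, 7 in the tumor color alone, 16 with trend and robust moderation, 39 with scan day and 22 with slide as random blocks, 143 with only these tumors, 125 with a transgene term, 10 within p75 and 374 within p110 tumors, and 115 without p110-121 (7 to 93 with a tumor of either cluster left out). Between histological types, 0 became 1 with Feature Extraction's signals and 0 to 31 with a tumor left out, 31 without p75-101. Between transgenes, 145 became 218 with no background correction, 304 with Feature Extraction's signals, 1205 with median centering, 67 with scaled arrays, 315 in Cy5, 71 in Cy3, 1618 in the tumor color alone, 44 with scan day, 63 with slide, 1160 with a cluster term, 0 among solid carcinomas and 46 to 1084 with a tumor left out, 1084 without p110-314. There, 1 marker, Cd44, passed with median centering. Marker pairs that passed were 6 with median centering, among them Procr with Cd44 (r = 0.80, adjusted permutation p = 0.0036), and 5 with scaled arrays. Over the alternatives other than leaving out a tumor, the difference between Wnt clusters was 1.36 to 3.09 for Klf4, 0.49 to 1.86 for Procr, 0.42 to 2.22 for Cd44 and 0.34 to 1.46 for Ly6a. Between histological types it was 0.88 to 2.46 for Cd44, 1.80 to 2.53 for Klf4 and 0.38 to 1.56 for Procr, and between transgenes 0.47 to 2.44 for Cd44. Signs turned mostly where differences were near 0. Between Wnt clusters Itgb1 was -1.55 with Feature Extraction's signals, -0.32 with median centering, -0.65 in the tumor color alone, -0.86 within p75 tumors and -0.13 to 0.20 with a tumor left out, Aldh1a1 was -0.13 within p75 tumors and Sox9 1.06 within p110 tumors. Between types Itgb1 was 0.0176 with no background correction, 0.14 with median centering, 0.0431 in Cy5 and -0.33 to 0.11 with a tumor left out, Ly6a -0.16 to 0.91 (lowest without p75-80) and Sox9 -1.46 to 0.0840 (highest without p75-94). Between transgenes Itgb1 was -0.0139 with the mean of all probes, -0.0255 in Cy3 and -0.0894 to 0.21 with a tumor left out, Procr -0.18 in the tumor color alone, -0.24 among solid carcinomas and -0.0775 to 0.38 with a tumor left out, Sox9 -0.16 in the tumor color alone, Klf4 -0.45 among solid carcinomas, and Ly6a -0.0188 with a cluster term, -0.54 among solid carcinomas and -0.17 to 0.32 with a tumor left out. The causes were not tested. No paired analysis was possible because the labels give no number that pairs tumors of different groups. Dim probes, such as those of Itgb1, limit what the arrays can show.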
